A study of Mus musculus with 2 samples.

Results

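The genes described here build the N-linked glycan on its lipid carrier, move it onto nascent proteins and trim it in the endoplasmic reticulum (ER) and the Golgi. They were chosen by gene symbol, as a list of 35 genes of known function, and all 35 were found once among the 32285 genes of the deposited count tables. The data are single-cell RNA-seq of mouse liver on the 10x Genomics 3′ droplet platform, with 1 WT library (genotype label CTRL, tissue label Liver) and 1 N-LKO library (genotype label NgBR KO, tissue label Liver plus tumor). The methods of the study do not state how many mice entered each library. Mice of both groups received the diet for 16 weeks, which the treatment labels call WD (Western diet) and the titles call HFD. N-LKO mice carry loxP-flanked NgBR (gene Nus1) alleles deleted by Cre under the albumin promoter, which is active in hepatocytes, on a C57BL6 background. Hepatocytes and nonparenchymal cells were pooled for WT, and for N-LKO tumor cells were added to the pool. With 1 library per group there is no replicate, so no test of the genotype was made, and genotype, tumor tissue and library cannot be told apart.

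N-glycosylation begins on dolichol, a long lipid in the ER membrane that is made by the cis-prenyltransferase complex of NgBR and DHDDS. ALG enzymes add N-acetylglucosamine and mannose on the cytosolic face, the lipid flips, and further ALG enzymes add mannose and glucose on the lumenal face from dolichol-phosphate sugars. The oligosaccharyltransferase (OST) complex then transfers the whole glycan to asparagine residues of proteins entering the ER. Glucosidases, the lectin chaperones calnexin and calreticulin, and the folding sensor UGGT1 use the glycan to retain unfolded proteins, and Golgi mannosidases and GlcNAc transferases remodel it afterwards. Hepatocytes and plasma cells secrete large amounts of glycoprotein.

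The tables held 85522287 unique molecular identifiers (UMIs, 1 per captured transcript) in 100171 WT barcodes and 87575064 UMIs in 90147 N-LKO barcodes, which had 2499 barcodes in common. After filters on UMIs, genes, mitochondrial share and doublets, 18434 WT and 19851 N-LKO cells were kept, with medians of 1401 and 1454 UMIs per cell, and 122 of the barcodes found in both libraries were among them. Cells were clustered and clusters were named from marker genes with the suffix "-like". Hepatocyte-like cells numbered 9957 in WT and 4095 in N-LKO, and the 10 hepatocyte markers summed to 42426 and 27814 CPM (UMIs of a gene for every 1000000 UMIs of a class) in them. Different clusters held this class in each library: 8332 of the WT cells lay in 1 main cluster, while N-LKO cells lay in a main cluster of 1990 cells and a cluster of 1987 cells that was rich in the nuclear RNA Malat1. The name of the Malat1-rich clusters is the weakest of the class: the hepatocyte markers summed to 11913 CPM in the N-LKO one and 25129 CPM in the WT one, against 41017 and 44483 CPM in the main clusters and 20054 and 32847 CPM in barcodes under 500 UMIs of N-LKO and WT. Values for the whole class are therefore followed by those between the main clusters. Free RNA was estimated from barcodes under 500 UMIs, which had medians of 452 UMIs in WT and 449 in N-LKO. The tables held no barcode under 326 UMIs in WT or 377 in N-LKO, so these barcodes may include cells of low depth. How much of their RNA was free was not tested. All 10 endothelial and all 10 Kupffer markers had UMIs in hepatocyte-like cells, and their sums, 312 and 365 CPM in WT and 225 and 399 CPM in N-LKO, stood at 80.0% of their joint level in barcodes under 500 UMIs for WT and 42.2% for N-LKO. In the other classes the hepatocyte markers stood at 25.4% to 60.9% of their level in those barcodes.

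Levels below are in CPM with exact 95% Poisson intervals. Ratios are log2(N-LKO/WT) after adding 0.5 UMI to both sums, with exact 95% intervals conditional on the total UMIs of the gene, and these intervals cover counting error only. Because 3′ UMIs count transcript ends, levels were not divided by gene length. A gene was counted as higher or lower when its ratio reached 1.5-fold, and genes under 5 CPM in both libraries were left out. This is a rule of size and not a test. A gene under 5 CPM in only 1 library passed through the other, where it was higher.

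Nus1, the deleted gene, was measured first. In hepatocyte-like cells it stood at 72.9 CPM (68.9 to 77.1) in WT against 33.8 CPM (30.004 to 38.0) in N-LKO, for a log2 ratio of -1.11 (-1.30 to -0.92). In the main clusters the levels were 75.9 and 38.6 CPM, and in the Malat1-rich clusters 38.3 and 27.8 CPM, where the interval of the log2 ratio, -1.10 to 0.23, spanned 0. Classes in which albumin-Cre is not expected to act had similar levels in both libraries for endothelial-like cells, 90.6 and 94.1 CPM, and Kupffer-like cells, 81.3 and 87.8 CPM. T/NK-like cells had 72.6 and 54.8 CPM and monocyte-like cells 68.7 and 48.8 CPM of Nus1, with log2 ratios of -0.41 and -0.50 whose intervals lay below 0. The loxP sites of the study's mice flank the first exon, at the 5′ end of the gene, and 3′ UMIs are counted at the other end, outside the deleted part. The level of Nus1 is therefore a measurement of its remaining 3′ ends and not a check of the genotype labels.

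In hepatocyte-like cells the 35 genes had a median log2 ratio of 0.22, against 0.38 over all 10589 genes that passed the level filter. All 35 passed it, and 22 had a ratio above 0, where 70.5% of all genes did, and 13 below. The interval lay above 0 for 13 genes and below 0 for 7, counts that were not made over all genes. A total of 10 of 35 were at least 1.5-fold higher in N-LKO, where 39.6% of all genes were, and 0 of 35 were at least 1.5-fold lower, where 7.01% of all genes were. After centring on the median of all genes, 2 of 35 (Alg12 and Alg8) were 1.5-fold higher against 22.5% of all genes, and 4 of 35 (Alg10b, Dpm3, Mogs and Mgat2) were 1.5-fold lower against 19% of all genes. Their median thus lay below that of all genes, and every step of the pathway held ratios on both sides of 0. After subtracting the counts expected from free RNA, the median of the list was -0.22 against 0.41 over all genes, with 6 of 35 genes 1.5-fold higher, where 41.8% of all genes were, and 13 of 35 lower, where 14.4% were.

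The first sugars are added on the cytosolic face by 5 of the genes, whose median log2 ratio was 0.35. Alg13 and Alg14 form the enzyme that adds the second N-acetylglucosamine. Alg13 stood at 12.1 CPM (10.5 to 13.9) in WT against 19.98 CPM (17.1 to 23.2) in N-LKO, giving a log2 ratio of 0.72. Alg14 stood at 24.6 CPM (22.3 to 27.1) and 37.8 CPM (33.8 to 42.2), a log2 ratio of 0.62. The intervals of the levels did not overlap for either subunit. The mannosyltransferases that follow were close in both libraries. Alg1 had 4.28 and 5.44 CPM, Alg2 had 9.04 and 9.46 CPM, and Alg11 had 18.9 and 18.1 CPM, and the interval of the log2 ratio included 0 for each of them.

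The 6 enzymes that complete the glycan on the lumenal face had a median log2 ratio of 0.33 and held both of the highest ratios among the 35 genes. Alg12, which adds the eighth mannose, had 4.40 CPM (3.46 to 5.53) in WT against 11.3 CPM (9.19 to 13.9) in N-LKO, giving a log2 ratio of 1.36 (0.91 to 1.82) from 74 and 96 UMIs. Alg8, which adds the second glucose, had 3.09 CPM (2.31 to 4.06) and 7.09 CPM (5.41 to 9.13), a log2 ratio of 1.195 (0.64 to 1.76) from 52 and 60 UMIs. Both are among the least abundant of the 35 genes in hepatocyte-like cells. Both passed the level filter only through N-LKO, the library where they were higher. Alg10b, which adds the last glucose, went the other way, with 22.7 CPM (20.5 to 25.1) and 16.8 CPM (14.1 to 19.8) and a log2 ratio of -0.43 (-0.73 to -0.16). The mannosyltransferases Alg3 (4.40 and 5.91 CPM) and Alg9 (12.7 and 13.2 CPM) and the glucosyltransferase Alg6 (11.5 and 13.4 CPM) had ratios whose intervals included 0.

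The donors for these lumenal steps are dolichol-phosphate mannose and dolichol-phosphate glucose. Their 5 genes had a median log2 ratio of 0.12, with opposite directions inside 1 complex. Dpm1, the catalytic subunit of dolichol-phosphate-mannose synthase, had 52.8 and 57.5 CPM, a log2 ratio of 0.12 (-0.04 to 0.28). Dpm3, the subunit that holds the enzyme at the membrane, had 79.1 CPM (74.9 to 83.5) and 61.4 CPM (56.2 to 66.9), a log2 ratio of -0.37 (-0.52 to -0.22). Dpm2, its regulatory subunit, had 9.52 and 9.10 CPM. Mpdu1, needed for the use of both donors, had 22.2 CPM (19.99 to 24.6) and 34.0 CPM (30.2 to 38.2), a log2 ratio of 0.62. Alg5, the dolichol-phosphate-glucose synthase, had 16.7 and 20.1 CPM and an interval that included 0.

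**Figure D1:**
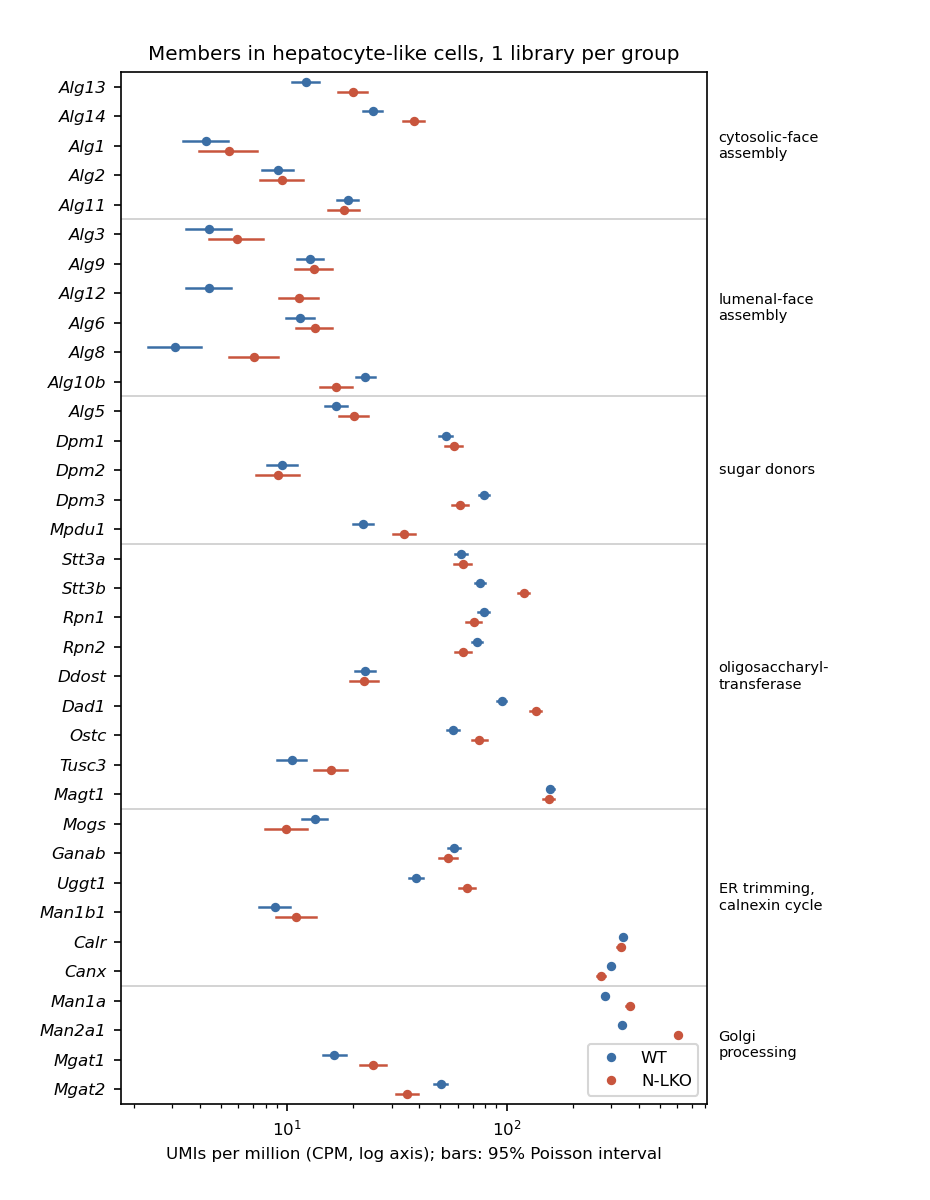
Level of each of the 35 genes in hepatocyte-like cells of the WT and N-LKO libraries, in CPM on a log axis, grouped by step of the pathway, with exact 95% Poisson intervals for counting error as bars. Levels run from about 3 CPM for Alg8 in WT to 602 CPM for Man2a1 in N-LKO, and the points of most genes lie close together.

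The 9 OST genes had a median log2 ratio of 0.02, against 0.38 over all genes, and 2 of 9 were at least 1.5-fold higher, where 39.6% of all genes were. Of the alternative catalytic subunits, Stt3a, which acts as proteins enter the ER, had 62.0 CPM (58.3 to 65.9) in WT against 63.0 CPM (57.8 to 68.6) in N-LKO. Stt3b, which also glycosylates sites that were skipped, had 75.9 CPM (71.8 to 80.2) and 119.5 CPM (112 to 127), a log2 ratio of 0.66 (0.53 to 0.78). The catalytic subunits therefore differed from each other in ratio by more than their counting intervals. Tusc3 and Magt1 are alternative oxidoreductase subunits of the STT3B complex. Tusc3 had 10.5 and 15.8 CPM, a log2 ratio of 0.60, while Magt1, the more abundant of the pair in this class, had 158 and 156 CPM and a ratio of -0.03.

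The subunits shared by both OST complexes were split. Dad1 had 94.9 CPM (90.3 to 99.7) and 136 CPM (128 to 144), a log2 ratio of 0.52 that lies just under the 1.5-fold limit, and Ostc, a subunit of the STT3A complex, had 57.0 and 75.2 CPM, a ratio of 0.40. Rpn1 had 78.5 and 70.9 CPM (log2 ratio -0.15) and Rpn2 73.4 and 63.6 CPM (log2 ratio -0.21), both with intervals below 0. Ddost had 22.7 and 22.5 CPM.

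Trimming in the ER had the lowest group median, -0.06 over 6 genes. Mogs, glucosidase I, had 13.4 CPM (11.7 to 15.3) in WT against 9.93 CPM (7.92 to 12.3) in N-LKO, with a log2 ratio of -0.43 (-0.81 to -0.06), and Ganab, the catalytic subunit of glucosidase II, had 57.6 and 54.1 CPM. The lectin chaperones were near equal: Calr had 340.5 CPM (332 to 349) and 331 CPM (319 to 343), and Canx had 299 CPM (290 to 307) and 268 CPM (258 to 280), a log2 ratio of -0.15. Uggt1 was the exception in this group, with 38.7 CPM (35.8 to 41.8) and 66.0 CPM (60.6 to 71.7), a log2 ratio of 0.77 (0.60 to 0.94). Man1b1, the ER mannosidase, had 8.80 and 11.0 CPM with an interval that included 0.

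The 4 Golgi genes had a median log2 ratio of 0.48 and ran from -0.51 to 0.84. Man2a1, Golgi mannosidase II, was the most abundant gene of the list in N-LKO, with 337 CPM (328 to 346) in WT against 602 CPM (585 to 619) in N-LKO and a log2 ratio of 0.84 (0.78 to 0.89). Man1a, Golgi mannosidase IA, had 280.1 and 364 CPM, a log2 ratio of 0.38. The GlcNAc transferases that start the complex branches differed in direction. Mgat1 had 16.4 and 24.7 CPM, a log2 ratio of 0.59, and Mgat2 had 50.3 CPM (46.9 to 53.8) and 35.2 CPM (31.3 to 39.5), a log2 ratio of -0.51, the lowest of the 35.

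These ratios depended on which hepatocyte-like cells entered. Comparing the main clusters alone, the median over the 35 genes was 0.10, against 0.07 over 9920 genes. There, 6 of 35 were at least 1.5-fold higher in N-LKO, where 16.9% of all genes were, and 0 of 35 were 1.5-fold lower, where 8.78% of all genes were. Of these 6, Alg8 was the one that was also among the 10 of the whole class. Dad1 had 93.0 CPM in the WT main cluster and 213 CPM in the N-LKO main cluster, giving a log2 ratio of 1.198 (1.08 to 1.32). Ostc had 59.1 and 111 CPM, a log2 ratio of 0.91 (0.74 to 1.07). Alg5 had 16.8 and 28.6 CPM (0.78), Alg3 had 4.83 and 7.67 CPM (0.68), Dpm2 had 8.56 and 13.3 CPM (0.64), and Alg8 had 3.18 and 5.19 CPM, a log2 ratio of 0.72 whose interval included 0. All 5 donor genes had ratios above 0, where 56.8% of all genes did, with a median of 0.49. Calr had 370.4 and 481 CPM, a log2 ratio of 0.38 (0.30 to 0.45). Between the Malat1-rich clusters of N-LKO and WT, the log2 ratio was 0.14 (-0.44 to 0.82) for Dad1 and -0.14 (-0.76 to 0.57) for Ostc. There the donor genes had a median of -0.79, and Calr had a ratio of 0.57 (0.21 to 0.96). In the whole class at up to 10% mitochondrial UMIs, Dad1 had 0.04 and Ostc 0.17.

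Several genes that stood out in the whole class were level between the main clusters. Man2a1 had 351 and 342 CPM, Stt3b had 81.1 and 79.6 CPM, and Uggt1 had 39.3 and 39.9 CPM there, with log2 ratios of -0.04, -0.03 and 0.02 and intervals that included 0. Alg13 had 11.8 and 10.4 CPM, and Mgat2 had 54.5 and 49.9 CPM. Alg14 (0.19), Tusc3 (0.31), Mgat1 (0.24) and Alg12 (0.45) also had intervals that included 0, while Mpdu1 had 22.9 and 32.0 CPM, a log2 ratio of 0.49 (0.19 to 0.77). Rpn1 (0.14) and Rpn2 (0.07), below 0 in the whole class, were above it here with intervals that included 0. Man1a had 290.2 and 253 CPM, a log2 ratio of -0.20 with an interval below 0. Subtracting the counts expected from free RNA in the whole class turned the ratio below 0 for 11 genes that were above it and above 0 for Dpm3. It gave -0.52 for Man1a, -0.22 for Stt3b, -0.08 for Man2a1, -0.07 for Uggt1, -0.06 for Tusc3, -0.51 for Man1b1, -0.54 for Alg6, -1.14 for Alg9, -0.88 for Stt3a, -0.50 for Alg2 and -0.02 for Alg3.

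The Malat1-rich and the main cluster of the same library were compared next. Malat1 stood at 8755 CPM in the WT main cluster and 35740 CPM in the WT Malat1-rich cluster, and at 4549 and 20167 CPM in those of N-LKO. In N-LKO the median of the 35 genes for Malat1-rich over main was -0.11, against 0.65 over all genes, and in WT it was 0.01 against 0.58. Man2a1 had 342 CPM in the N-LKO main cluster and 917 CPM in the Malat1-rich one, a log2 ratio of 1.43, and 351 and 579 CPM in the WT clusters, a ratio of 0.72. Uggt1 (1.27 in N-LKO, 0.89 in WT), Man1a (0.99 and 0.77), Alg14 (0.94 and 1.40) and Alg9 (0.84 and 1.45) were also higher in the Malat1-rich cells of both libraries. Calr (-1.65 and -1.84), Mgat2 (-1.56 and -1.91), Rpn1 (-1.25 and -1.08) and Ddost (-1.36 and -1.09) were lower in the Malat1-rich cells of both. So were Dad1 (-2.26 and -1.20), Dpm3 (-2.12 and -0.77), Ostc (-1.71 and -0.66), Rpn2 (-1.08 and -0.76) and Canx (-0.76 and -0.88). All 9 OST genes were below 0 in WT, where 66.9% of all genes were above 0. Some genes did not follow the same pattern in both libraries. Stt3b had a ratio of 1.09 (0.90 to 1.28) in N-LKO and -0.16 (-0.63 to 0.25) in WT, and Dpm1 had -0.64 (-0.92 to -0.37) in N-LKO and 0.57 (0.11 to 0.98) in WT. The WT Malat1-rich cluster held 320 cells, so its values rest on few UMIs.

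**Figure D2:**
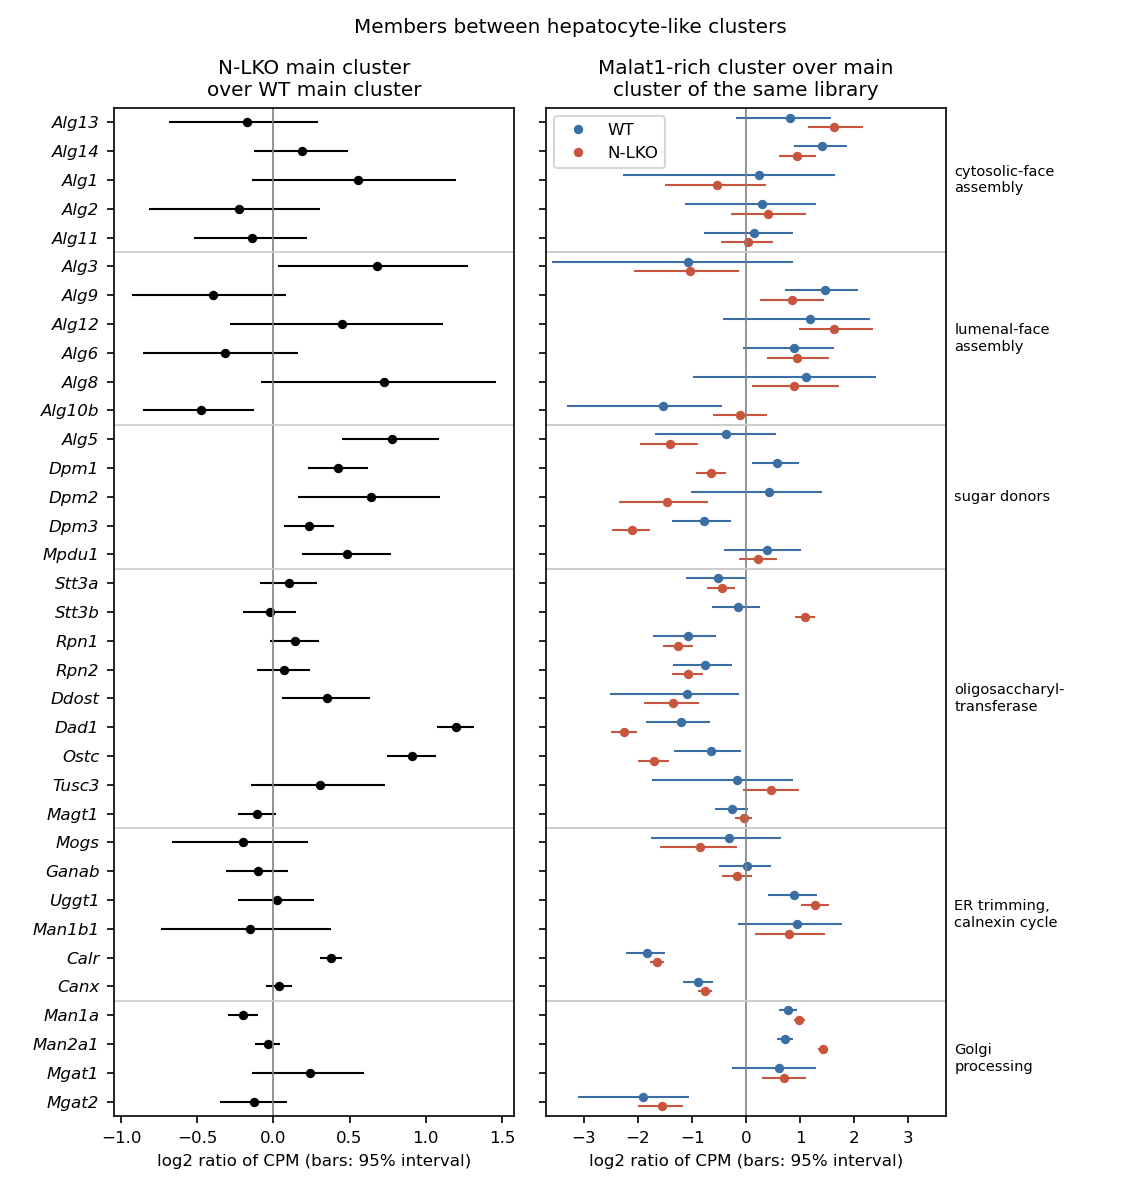
Log2 ratios of the 35 genes for N-LKO over WT between the main clusters of hepatocyte-like cells, and for the Malat1-rich over the main cluster within each library, with 95% counting intervals as bars. Man2a1, Uggt1 and Man1a lie above 0 and Calr, Mgat2, Rpn1 and Ddost below 0 in the Malat1-rich cells of both libraries.

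Malat1 is retained in the nucleus, and the share of mitochondrial UMIs differed between these clusters as well, with medians of 21.7% in the WT main cluster, 7.02% in the WT Malat1-rich cluster, 15.8% in the N-LKO main cluster and 14.5% in the N-LKO Malat1-rich cluster. The part of these values in the ratios was not tested. A further WT cluster of 1188 cells was poor in Malat1, at 1537 CPM. There 26 of the 31 genes that passed were lower than in the WT main cluster, while 45.3% of all genes were higher. The median log2 ratio was -1.21, against -0.12 over all genes.

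The length of the transcribed gene, which the choice of genes did not use, moved with the ratio. The 8 genes that span at least 50 kb of the genome, Man1a (172 kb), Tusc3 (159 kb), Man2a1 (154 kb), Uggt1 (105 kb), Alg14 (71.3 kb), Alg9 (68.5 kb), Stt3b (67.8 kb) and Alg13 (56.6 kb), all had ratios above 0 in hepatocyte-like cells, with a median of 0.64. The 17 genes of 10 to 50 kb had a median of 0.22, and the 10 genes under 10 kb, among them Mgat2 (2.61 kb), Dpm2 (2.72 kb) and Mogs (3.40 kb), had a median of -0.05 with 7 of 10 below 0. All genes followed the same order, with medians of 0.82, 0.28 and -0.07 in those length classes, and 3015 of 3375 genes of 50 kb and over were above 0. Whether reads in introns were counted is not given in the sources used here, and the part of length in the ratios was not tested. Between the main clusters the order was the reverse. From short to long the medians there were 0.29, 0.14 and -0.03 for the list and 0.32, 0.07 and -0.03 for all genes. For the Malat1-rich over the main cluster, medians over all genes of 50 kb and over were 1.52 in N-LKO and 1.18 in WT. For genes under 10 kb they were -0.99 and -0.32. Man2a1, Uggt1 and Man1a lay below the median of genes of 50 kb and over in both libraries. In endothelial-like cells the medians from short to long were 0.44, 0.13 and 0.57 for the list and -0.37, 0.02 and 0.39 for all genes, so that the short genes of the list did not follow the order there.

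**Figure D3:**
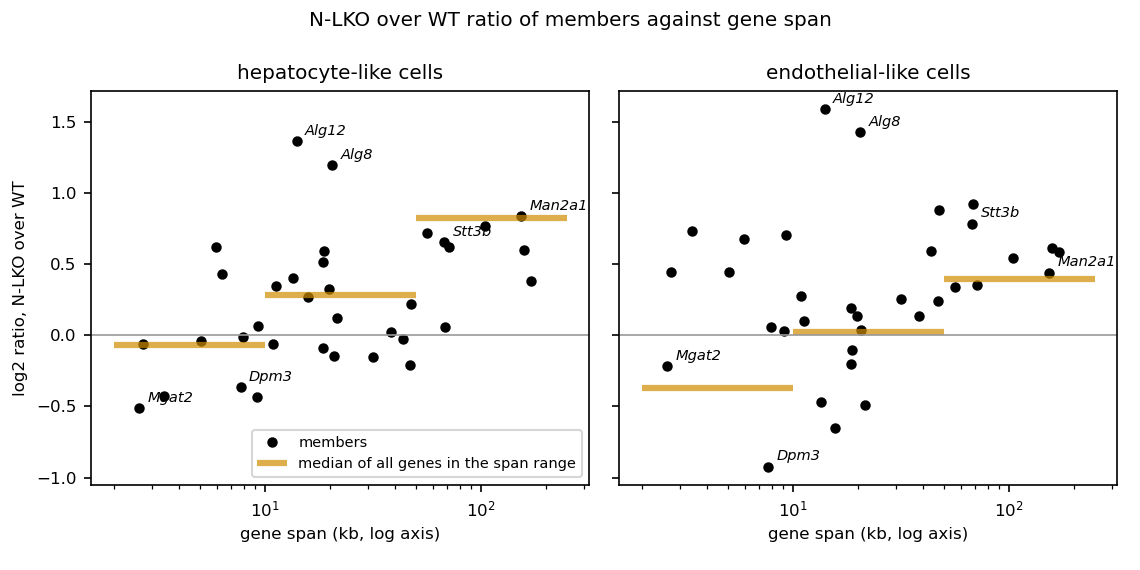
Log2 ratio of N-LKO over WT for each of the 35 genes that passed against the genomic span of the gene in kb on a log axis, in hepatocyte-like cells (left) and endothelial-like cells (right), with the median over all genes in each length class as bars. All 8 genes of 50 kb and over lie above 0 in both classes, while genes under 10 kb have medians of -0.05 and 0.44.

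In the other cell classes, where albumin-Cre is not expected to act, the median of the list lay above that of all genes in every class compared except hepatic stellate-like cells. The comparison covered 8 further classes with at least 200 cells in each library. Endothelial-like cells had a median of 0.31 over the 34 genes that passed, against 0.09 over all genes. In them 11 of 34 were at least 1.5-fold higher, where 22.9% of all genes were, and 2 of 34 were lower, where 17.2% were. In T/NK-like cells the median was 0.31 against 0.07, with 7 of 33 higher (23.9% of all genes) and 0 of 33 lower (18.1%). In monocyte-like cells it was 0.25 against -0.00, with 7 of 34 higher (18.2%) and 3 of 34 lower (20.5%). Kupffer-like cells had 0.08 against -0.06, with 2 of 35 higher (10.9%) and 0 of 35 lower (14.9%). Hepatic stellate-like cells had -0.06 against -0.06, with 7 of 34 higher (18.8%) and 2 of 34 lower (22%). The share of the list that was higher lay above the background in endothelial-like cells and close to it or below it in the other 4 of these classes. With cells of at least 2000 UMIs alone, the median of the list was -0.16 in T/NK-like, -0.17 in B-like and -0.26 in plasmacytoid dendritic-like cells, below 0 but still above the medians over all genes, which were -0.17, -0.55 and -0.41.

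The 5 genes Stt3b, Uggt1, Canx, Man1a and Man2a1 had a ratio above 0 in all 8 of these classes. They are 5 of the 32 genes that passed in every class, or 15.6%, against 11.98% of the 9547 genes that did so over all genes. All but Canx span at least 50 kb. Over all genes of that length the median was above 0 in each of these 8 classes, from 0.13 in Kupffer-like to 0.43 in T/NK-like cells. The part of length was not tested here either. For Man2a1 the interval lay above 0 in 8 of 8 classes. It had 146 and 349 CPM in T/NK-like cells (log2 ratio 1.26), 160.2 and 296 CPM in monocyte-like cells (0.88), 497 and 675 CPM in endothelial-like cells (0.44), 262 and 331 CPM in Kupffer-like cells (0.33) and 408 and 529 CPM in hepatic stellate-like cells (0.38). Man1a had 342 and 515 CPM in endothelial-like cells and 119.6 and 237 CPM in monocyte-like cells. Stt3b had 61.5 and 106 CPM in endothelial-like cells, 70.9 and 116 CPM in hepatic stellate-like cells and 66.6 and 79.2 CPM in Kupffer-like cells.

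Dpm3 and Dpm1, subunits of the same synthase, had ratios below 0 in all 8 classes. They are 2 of 32 genes, or 6.25%, against 14.7% of all genes. Dpm3 spans 7.72 kb and Dpm1 21.5 kb. Over all genes under 10 kb the median was below 0 in each class, from -0.49 in hepatic stellate-like to -0.26 in Kupffer-like cells. Dpm3 had 79.6 and 42.0 CPM in endothelial-like cells (-0.92), 88.2 and 34.7 CPM in hepatic stellate-like cells (-1.33), 66.6 and 51.8 CPM in Kupffer-like cells (-0.36) and 76.5 and 54.5 CPM in T/NK-like cells (-0.49). Its interval lay below 0 in 7 of 8 classes, and in hepatocyte-like cells its direction depended on the setting: -0.37 in the whole class, 0.23 (0.07 to 0.39) between the main clusters and 0.46 after free RNA subtraction. Dpm1 had 60.2 and 42.8 CPM in endothelial-like cells and 76.5 and 54.1 CPM in T/NK-like cells. Dpm2, the remaining subunit, had ratios below 0 in 5 of 8 classes.

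Barcodes under 500 UMIs, the estimate of free RNA, moved with these directions, although they may include cells of low depth. In them Man2a1 stood at 116 CPM in WT against 266 CPM in N-LKO, and Stt3b at 29.9 and 57.7 CPM. Uggt1 stood at 17.8 and 38.9 CPM, Man1a at 104 and 169.9 CPM, Dpm3 at 80.5 and 42.8 CPM and Dpm1 at 56.1 and 35.9 CPM. After subtracting the counts expected from free RNA in each class, Stt3b, Uggt1, Man1a and Man2a1 were above 0 in 8 of 8 classes, Canx in 5 of 8, Dpm3 was below 0 in 7 of 8, and Dpm1 in 6 of 8.

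Calr had an interval above 0 in 7 of 8 other classes, with 205 and 304 CPM in T/NK-like cells (log2 ratio 0.56), 269.6 and 368 CPM in endothelial-like cells (0.45) and 417 and 492 CPM in Kupffer-like cells (0.24), while it was level in hepatic stellate-like cells, at 402 and 385 CPM. Alg12 had 3.82 and 12.4 CPM in T/NK-like cells, from 6 and 37 UMIs, and 2.53 and 8.10 CPM in endothelial-like cells, from 6 and 28 UMIs. It was above 0 in 7 of 8 classes, as was Alg8. After free RNA subtraction Calr was above 0 in 6 of 8 classes. Alg12 and Alg8 each kept a value in 5 classes then, and were above 0 in 4 of them. In endothelial-like cells all 5 lumenal-face enzymes that passed were above 0, where 55.4% of all genes were, with a median of 0.93. Of these, Alg12 passed only through N-LKO, the library where it was higher. Alg5 had 26.8 CPM in WT against 10.7 CPM in N-LKO hepatic stellate-like cells, a log2 ratio of -1.28 from 45 and 12 UMIs. All 5 donor genes were below 0 in that class, with a median of -0.45, while 46.9% of all genes were above 0.

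**Figure D4:**
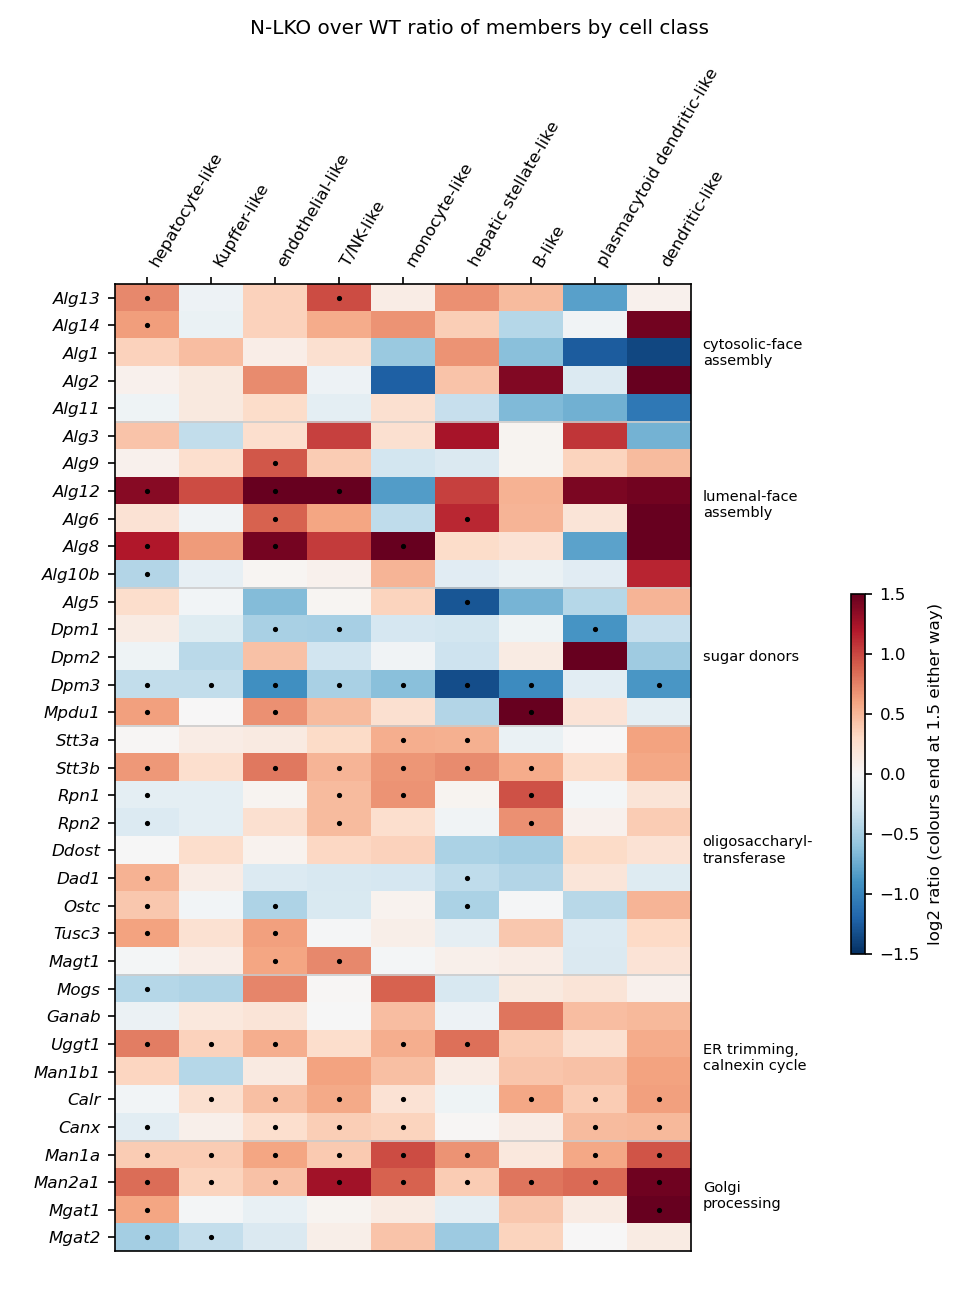
Log2 ratio of N-LKO over WT for each of the 35 genes in each class with at least 200 cells in both libraries, as a color scale centred on 0 that ends at 1.5 either way, with a dot where the 95% counting interval leaves out 0. The rows of Stt3b, Uggt1, Man1a and Man2a1 are above 0 in every class shown, and the row of Dpm3 is below 0 in every class shown, although in hepatocyte-like cells free RNA subtraction turns the direction of all 5.

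The promoters of the 35 genes were searched for 2 elements of the unfolded protein response, since chaperones of the ER lumen are known targets of ATF6 and XBP1 through them. The ER stress response element was searched as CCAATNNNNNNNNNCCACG and the unfolded protein response element as TGACGTGG, each on both strands, in windows of 250 bases before to 50 bases after the start (RefSeq, build GRCm38.p6). RefSeq promoters were matched for 31 of the 35 genes, all but Alg2, Alg11, Ostc and Tusc3. The first element occurred in 39 of 32851 promoters, or 0.119%, and in the promoters of 3 of the 31 genes, Alg12, Calr and Canx. The second occurred in 222 promoters, or 0.676%, and in none of the 31. The sequences before the start are shown for these 3 genes and for Hspa5, the ER chaperone BiP and a textbook target, 5′ to 3′ on the strand of the gene, with the matched element in capitals. They lie at chr15:88819319-88819548 (Alg12, minus strand), chr8:84846932-84847103 (Calr, minus strand), chr11:50325674-50325828 (Canx, minus strand) and chr2:34771970-34772089 (Hspa5, plus strand).
Alg12: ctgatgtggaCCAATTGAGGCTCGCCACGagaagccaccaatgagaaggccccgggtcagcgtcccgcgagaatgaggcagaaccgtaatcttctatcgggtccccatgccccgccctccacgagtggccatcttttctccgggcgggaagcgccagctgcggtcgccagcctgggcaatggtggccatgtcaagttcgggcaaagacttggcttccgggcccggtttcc
Calr: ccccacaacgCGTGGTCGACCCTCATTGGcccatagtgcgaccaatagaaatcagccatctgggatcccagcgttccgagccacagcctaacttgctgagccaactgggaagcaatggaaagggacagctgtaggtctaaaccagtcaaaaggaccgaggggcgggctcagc
Canx: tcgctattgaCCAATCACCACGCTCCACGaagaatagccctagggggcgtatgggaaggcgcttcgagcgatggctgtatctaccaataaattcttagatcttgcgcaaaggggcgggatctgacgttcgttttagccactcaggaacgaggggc
Hspa5: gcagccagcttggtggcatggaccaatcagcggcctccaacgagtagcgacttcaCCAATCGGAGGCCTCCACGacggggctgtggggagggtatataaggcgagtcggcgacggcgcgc

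The element begins 220 bases before the start in Alg12, 162 bases before it in Calr, 145 in Canx and 65 in Hspa5, and in Calr it lies on the opposite strand. A match is a run of letters and not evidence of binding. The genes that hold it had unlike ratios in hepatocyte-like cells: Alg12 at 1.36, Calr at -0.04, Canx at -0.15, and Hspa5 at 0.44 with 476 and 643 CPM. Between the main clusters the log2 ratios were 0.45 for Alg12 (-0.29 to 1.11), 0.38 for Calr, 0.04 for Canx (-0.05 to 0.12) and 0.75 for Hspa5, which had 508 and 855 CPM there.

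Other genes of the pathway were read from lists that hold none of the 35. The medians over all genes, for comparison, were 0.38 in the whole class and 0.07 between the main clusters. Among 7 genes of dolichol supply and the first steps, the median log2 ratio in hepatocyte-like cells was 0.17. There 1 of 7 was 1.5-fold higher (39.6% of all genes) and 2 of 7 were lower (7.01%). The lowest was Nus1, the deleted gene. Between the main clusters the median was 0.22, with 1 of 7 higher (16.9% of all genes) and 2 of 7 lower (8.78%). Of 11 genes of sugar nucleotide supply, 9 passed with a median of 0.22, and the median was 0.02 between the main clusters. Gmppa, of GDP-mannose synthesis, had 12.8 and 17.7 CPM, and Gnpnat1, of UDP-GlcNAc synthesis, had 70.9 and 45.9 CPM, a log2 ratio of -0.63.

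Further OST and glucosidase subunits, listed together with Uggt2, Mlec and Nomo1, 7 of 7 passing, had a median of 0.16. Between the main clusters 6 passed and the median was 0.44. Uggt2, the paralog of Uggt1, had 2.14 and 9.93 CPM, a log2 ratio of 2.20, and passed the level filter only through N-LKO. Ost4, a small OST subunit of the catalytic core, had 125 and 76.6 CPM, a ratio of -0.70. Glycoprotein quality control and export, 11 of 11 passing, had a median of -0.02, and of 0.02 between the main clusters. Whole-class ratios ran from Edem3, of ER-associated degradation, with 28.6 and 60.6 CPM (1.09) to Lman2, a cargo lectin, with 83.5 and 52.4 CPM (-0.67).

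Of 14 genes of the later Golgi steps, 11 passed with a median of 0.80, and 8 of 11 were 1.5-fold higher and 0 lower, where 39.6% and 7.01% of all genes were. Mgat5, which adds the β1,6 branch, had 27.1 and 163 CPM, a log2 ratio of 2.58, and Slc35a1, the CMP-sialic acid transporter, had 18.2 and 14.7 CPM (-0.31). Between the main clusters 12 passed, the median was 0.33 and 2 of 12 were 1.5-fold higher, where 16.9% of all genes were. ER chaperones and unfolded protein response genes, 14 of 15 measured, had a median of 0.30 in the whole class with 2 of 14 genes 1.5-fold higher, a share below the 39.6% of all genes. Between the main clusters their median was 0.47 and 7 of 14 were higher, a share above the 16.9% of all genes. Creld2, an ER stress-induced chaperone, had 9.70 and 28.1 CPM (1.54) in the whole class and Dnajb9, a BiP co-chaperone, had 80.8 and 62.4 CPM (-0.37).

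Across cell classes, the 35 genes summed to the highest level in plasma-like cells, 3510 CPM in WT against 3619 CPM in N-LKO, from 102 and 264 cells. Hepatocyte-like cells had 2382 and 2829 CPM and endothelial-like cells 2482 and 3099 CPM. The lowest class was neutrophil-like in WT, at 1668 CPM from 103 cells, and monocyte-like in N-LKO, at 2261 CPM. Barcodes under 500 UMIs had 1213 and 1796 CPM. The 9 OST genes alone summed to 1113 and 1136 CPM in plasma-like cells and to 633 and 722 CPM in hepatocyte-like cells.

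Plasma-like cells had the highest level for 13 genes in WT and 12 in N-LKO, and for 8 in both (Alg5, Rpn1, Ddost, Ostc, Ganab, Man1b1, Calr and Mgat2). Rpn1 had 265 and 227 CPM there, against 130.5 and 134 CPM in hepatic stellate-like cells, the next class. Calr had 677 and 695 CPM against 417 and 492 CPM in Kupffer-like cells. Hepatocyte-like cells were the highest class for none of the 35 in WT and for Dpm1 and Mpdu1 in N-LKO. For Alg3 no UMI was seen in plasma-like cells of either library, where 3 UMIs would stand at 17.7 and 6.56 CPM, above the levels in most other classes.

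Subunits that replace each other differed in where they were highest. Stt3b was highest in cholangiocyte-like cells, with 203 and 251 CPM, followed by B-like cells with 113 and 167 CPM. Tusc3 was also highest there, with 67.8 and 70.0 CPM against 10.5 and 15.8 CPM in hepatocyte-like cells, which were the lowest class for it in WT. Man1a was highest in B-like cells, with 779 and 871 CPM, and had 93.7 and 122 CPM in Kupffer-like cells. Man2a1 was highest in endothelial-like cells, Canx in Kupffer-like cells with 357 and 377 CPM, and Uggt1 in plasmacytoid dendritic-like cells with 91.6 and 109 CPM. Alg10b was highest in hepatic stellate-like cells at 23.2 and 20.5 CPM, close to 22.7 CPM in WT hepatocyte-like cells.

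**Figure D5:**
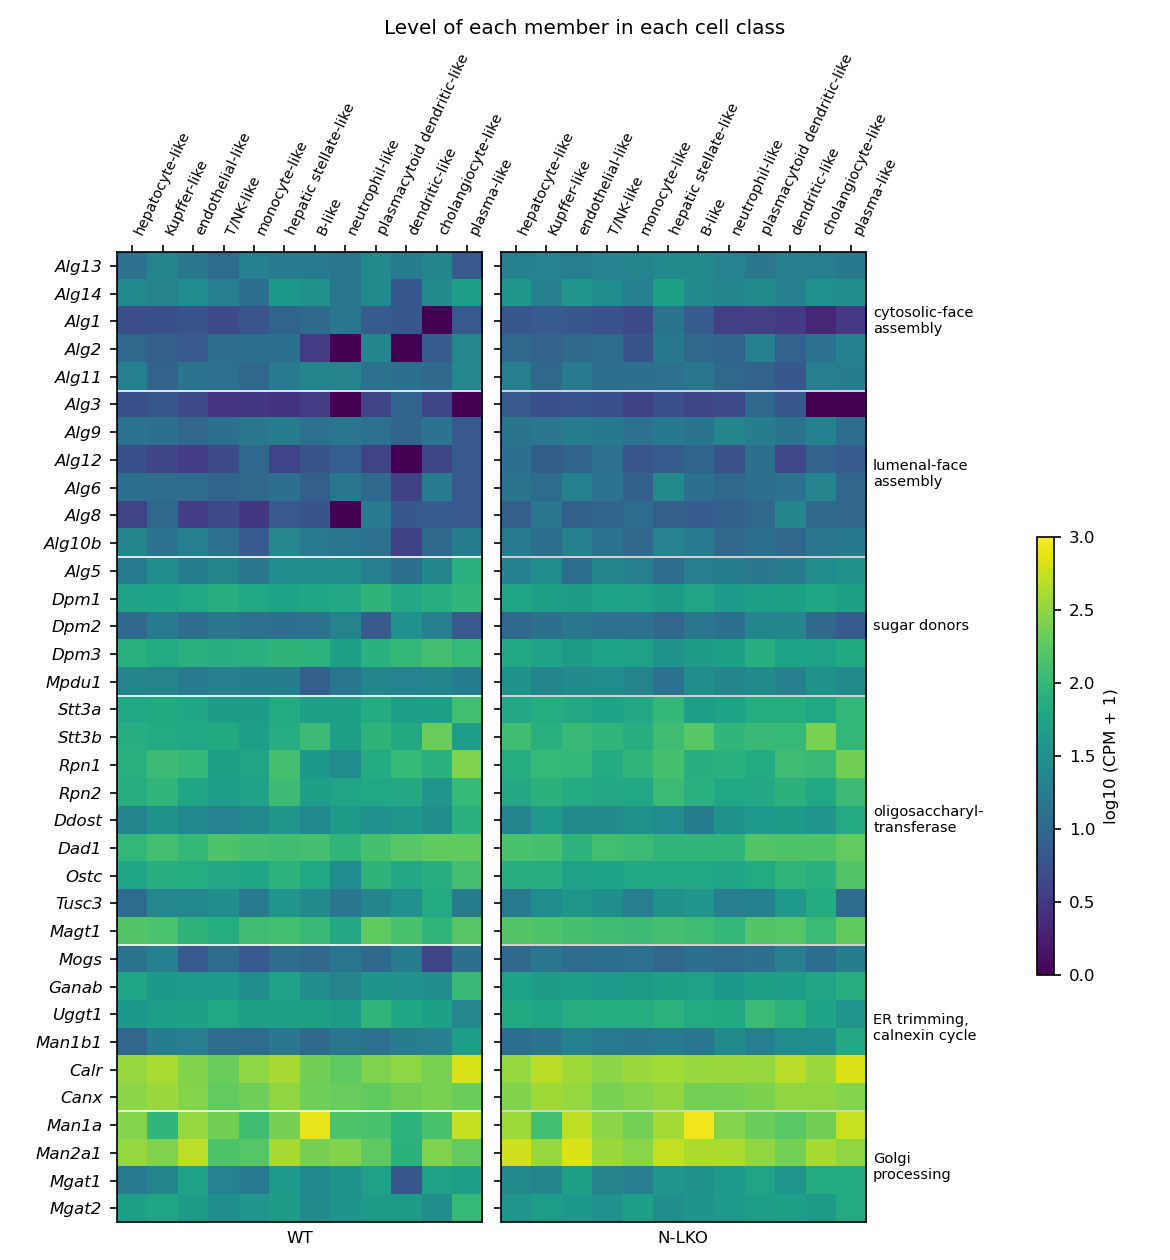
Level of each of the 35 genes in each class with at least 200 cells in a library, as log10(CPM + 1) on a color scale, for WT and N-LKO. Plasma-like cells hold the highest level of 13 genes in WT and 12 in N-LKO, and Man1a stands out in B-like and Stt3b and Tusc3 in cholangiocyte-like cells.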

How the data were processed

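The authors deposited raw UMI counts per gene and barcode for each library, made with Cell Ranger 7.1.0 per the file headers. The labels name the genome build mm9. Barcodes with at least 1000 UMIs, at least 400 genes and at most 30% mitochondrial UMIs were kept, and doublets called by Scrublet in scanpy 1.11.5 (score of 0.25 and over) were removed, 1724 in WT and 2363 in N-LKO. Counts were scaled to 10000 per cell, and 2000 variable genes and 30 components were used for Leiden clustering (leidenalg 0.10.2, resolution 0.3). Clusters were named from 10 or fewer markers per type, and since these names were rebuilt, a difference from the study may come from them. Clusters left unnamed or mixed entered no class. Raw counts were summed per library and class and scaled to CPM. Intervals were computed with scipy 1.17.1, and the code was tested on simulated counts. Gene spans come from GENCODE M21, where 32158 of 32285 gene IDs and all 35 members were found.

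With 1 library per group no p-value was computed. The text names all 35 members, Nus1, and from each other pathway list the genes with the highest and lowest ratio in hepatocyte-like cells among those with at least 20 UMIs in each library. Hspa5 was added after its values were seen. A gene that this rule names is not reported here. The members and lists were chosen with earlier results of these data known. The alternatives were another scaling, free RNA subtraction, limits on mitochondrial share, UMIs, doublet score and level, leaving out clusters of extreme Malat1 or shared barcodes, and resolution 1.0. The alternatives for levels across classes and the use of the Malat1-richest clusters alone were added after seeing the data. Ddit3, whose symbol occurs more than once in the tables, was left out of its list.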

Additional observations from a re-analysis of the deposited data

Results flagged for a closer look

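Barcodes under 500 UMIs entered no class, but they gave the free RNA estimate that was subtracted from the classes. They held more transcripts of the 35 genes in N-LKO than in WT. Of the 33 genes that passed the level filter there, 25 had a ratio above 0, as had 5218 of 10135 genes over all. The median log2 ratio was 0.59, against 0.04 over all genes. Alg12 had 2.20 CPM in WT against 7.87 CPM in N-LKO, and Calr had 153 and 296 CPM. The source of this RNA was not tested.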

How the results depend on the processing

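No paired analysis was possible because each group has 1 library. In hepatocyte-like cells the median log2 ratio of the 35 genes, 0.22, was -0.16 after centring on all genes and -0.22 after free RNA subtraction (all genes 0.41). Beside each count stands the share over all genes. The count 1.5-fold higher, 10 of 35 (39.6%), was 2 of 35 after centring (22.5%), 6 of 35 after free RNA subtraction (41.8%), 4 of 34 without clusters of extreme Malat1 (16.4%), 6 of 22 at 20 CPM and over (38.6%), 6 of 33 in the Malat1-richest clusters alone (26.8%) and 2 of 35 with a 2-fold limit (20.9%). The count 1.5-fold lower, 0 of 35 (7.01%), was 4 of 35 after centring (19.0%), 13 of 35 after free RNA subtraction (14.4%), 3 of 34 at up to 10% mitochondrial UMIs (18.8%) and 5 of 33 in the Malat1-richest clusters (22.5%). Nus1 was -1.49 after centring, -1.66 after free RNA subtraction and -0.48 in the Malat1-richest clusters. With cells of at least 2000 UMIs the medians were 0.19 in Kupffer-like, -0.16 in T/NK-like, -0.17 in B-like, -0.26 in plasmacytoid dendritic-like and 0.091 in dendritic-like cells, and plasma-like cells were highest in both libraries for 5 genes, not 8. Of 350 single-gene values under 10 alternatives, 285 kept the sign. A value counts as moved when it left the counting interval of the reported value, and as reversed when a gene past 1.5-fold changed sign: 214 stayed inside, 128 moved and 8 reversed. By that rule free RNA subtraction reversed Stt3b (-0.22), Tusc3 (-0.057), Uggt1 (-0.071) and Man2a1 (-0.083), leaving out clusters of extreme Malat1 reversed Alg13 (-0.24), Stt3b (-0.042) and Man2a1 (-0.021), and the Malat1-richest clusters reversed Alg14 (-0.28). The cause was not tested. Depth limits the rare ALG enzymes, several of which have under 100 UMIs per class.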
